A study of Mus musculus with 32 samples.

Results

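The 44 mouse genes named Col, a number, a and a number, which encode the α chains of the collagens, were followed across sorted glia of 3 kinds, ages from 3 to 10 months and a treatment of cultured astrocytes with Omomyc. They were chosen by symbol alone, from the 55291 genes of the astrocyte and oligodendrocyte tables. All 44 were listed in the astrocyte, oligodendrocyte and microglia tables and 38 in the culture table, where Col6a6, Col10a1, Col13a1, Col24a1, Col25a1 and Col28a1 have no row. A filter on low counts left 34 to be tested in the astrocyte table, 29 in that of oligodendrocytes, 12 in that of microglia and 35 in that of the cultures. The 44 comprise 11 fibril-forming chains, 9 network chains, 6 beaded filament chains, 9 fibril-associated chains, 4 transmembrane chains, 2 multiplexins and 3 others.

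Every library came from mice with the TDP-43_Q331K genotype, a mutant form of an RNA-binding protein used to model amyotrophic lateral sclerosis. Mice without it were not analysed here, so ageing and the transgene cannot be told apart, and no source used here names the promoter that drives it. Astrocytes taken with the ACSA2 antibody from cortices and spinal cords gave 4 libraries at 3 months, 5 at 6 months and 2 at 10 months. O4-selected oligodendrocytes from the same tissues gave 4 libraries at 3 months and 4 at 6 months, and Cd11b-selected microglia from cortices alone gave 3 libraries at 3 months and 4 at 10 months. Primary astrocytes kept for 14 days in culture, then replated, received vehicle (3 libraries) or 40 µM Omomyc for 48 h (3 libraries). Omomyc is a miniprotein that interferes with the transcription factor MYC. The labels do not say whether libraries came from separate animals or cultures, so p-values measure the spread between these libraries, which may be partly technical.

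Collagens are made of 3 chains wound into a triple helix. Fibril-forming collagens (types I, II, III, V, XI, XXIV and XXVII) assemble into cords in connective tissue, whereas type IV forms the sheet-like network of basement membranes, which in brain lie around blood vessels and at the surface under the pia. Fibril-associated collagens decorate fibrils, type VI forms beaded filaments next to cells, and the multiplexins XV and XVIII sit in basement membrane zones. In the central nervous system fibrillar collagen is mostly a product of meningeal and perivascular fibroblasts, and vascular cells are a major source of type IV.

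The genes of type IV lie in pairs that are read in opposite directions. In the RefSeq annotation of GRCm38.p6 the genes Col4a1 (minus strand) and Col4a2 (plus strand) on chromosome 8 overlap by 85 bases at their 5′ ends. Col4a3 and Col4a4 on chromosome 1 overlap by 114 bases, and 1274 bases separate Col4a5 from Col4a6 on chromosome X. Windows of 300 bases around the annotated starts are shown for Col4a1 (chr8:11312777-11313076) and Col4a2 (chr8:11312555-11312854), because both genes moved together in oligodendrocytes, with the 78 bases they share in capitals. They are printed 5′ to 3′ on the strand of each gene, so the shared run appears as its reverse complement in the other.

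Col4a1: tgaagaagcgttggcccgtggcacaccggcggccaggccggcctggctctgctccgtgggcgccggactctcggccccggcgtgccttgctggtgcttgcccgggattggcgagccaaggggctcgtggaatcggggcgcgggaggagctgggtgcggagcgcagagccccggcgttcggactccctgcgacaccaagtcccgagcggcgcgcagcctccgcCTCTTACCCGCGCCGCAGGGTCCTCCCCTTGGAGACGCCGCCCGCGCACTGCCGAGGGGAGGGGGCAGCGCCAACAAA
Col4a2: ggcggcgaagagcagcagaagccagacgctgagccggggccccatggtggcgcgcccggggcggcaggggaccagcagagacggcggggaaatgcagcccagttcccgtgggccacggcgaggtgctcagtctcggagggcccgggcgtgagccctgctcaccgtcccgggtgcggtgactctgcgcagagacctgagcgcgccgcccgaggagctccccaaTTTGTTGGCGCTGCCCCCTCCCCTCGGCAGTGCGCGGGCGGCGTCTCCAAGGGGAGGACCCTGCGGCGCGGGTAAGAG

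The window of Col5a3 (chr9:20815018-20815317, minus strand), the collagen gene with the smallest p in ageing astrocytes, holds 1 CCAAT box (CCAAT) and 3 GC boxes (GGGCGG), searched on both strands and shown in capitals in either orientation.

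Col5a3: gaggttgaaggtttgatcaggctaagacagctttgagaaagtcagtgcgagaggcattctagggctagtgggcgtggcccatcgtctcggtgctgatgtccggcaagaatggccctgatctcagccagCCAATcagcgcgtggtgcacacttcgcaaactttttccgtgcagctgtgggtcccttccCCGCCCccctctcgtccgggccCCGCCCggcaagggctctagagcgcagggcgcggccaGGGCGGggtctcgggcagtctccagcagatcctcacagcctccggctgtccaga

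Such windows were present in the RefSeq table for 35 of the 44 genes. The MYC-type E-box CACGTG, a palindrome, was found in none of the 35, and 7.24% of the 27025 windows of all genes hold it. At that share few of 35 windows would hold it, so its absence is not read as a trait of these genes. GC boxes were found in 22 of 35 (62.9%) against 35.9% of all windows, and CCAAT boxes in 12 of 35 (34.3%) against 37.9%. None of the 3 motifs contains another, and no more than the presence of these letters was examined.

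Total counts per library were 6151583 to 20763190 in astrocytes, 9752907 to 18598533 in oligodendrocytes, 4145129 to 5612071 in microglia and 30117025 to 37470972 in culture. Levels are in CPM unless TPM, which is per length, is named. CPM are counts scaled by library size, which is the total over genes kept by the filter times a TMM scaling factor. The sum of 10 astrocyte markers was 23083 to 35386 CPM in sorted astrocytes at any age and 288 to 603 CPM in oligodendrocytes, and sorted astrocytes also carried 16279 to 37676 CPM of 10 myelin markers. Cultured astrocytes carried 8096 to 9863 CPM of the astrocyte list, 4433 to 6516 CPM of 12 mural markers and 1616 to 3569 CPM of 10 microglial markers. In bulk libraries, fewer cells of a type and less RNA per cell cannot be told apart.

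The repertoire differed between the cell types. Summed over all members, collagen transcripts took 426 to 551 CPM in 3 month astrocytes, 266 to 334 CPM in 3 month oligodendrocytes, 328 to 425 CPM in 3 month microglia and 3982 to 8286 CPM in vehicle cultures. These sums come from 3 library kits and are not compared by a test. By deposited TPM, Col11a2, a chain of the minor fibrillar collagen XI, ranked first in astrocytes at each age and stood at 46.7 ± 10.1 TPM (SD, n = 4) at 3 months. In 3 month astrocytes it was followed by Col8a2 of the short-chain network collagen VIII (23.8 ± 2.94 TPM), Col9a3 of the fibril-associated collagen IX (23.2 ± 3.25 TPM), Col4a1 (18.9 ± 3.42 TPM), Col4a2 (18.0 ± 2.27 TPM) and the fibril-associated Col16a1 (15.3 ± 3.30 TPM).

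In oligodendrocytes of 3 months the order by length-scaled level began with Col11a2 (51.8 ± 12.3 TPM, SD, n = 4), Col9a3 (37.7 ± 7.08 TPM) and Col16a1 (27.5 ± 6.33 TPM). Next came Col9a2 (7.87 ± 1.78 TPM), the cartilage-type Col2a1 (7.84 ± 0.78 TPM) and the fibril-associated Col20a1 (5.61 ± 1.98 TPM), 3 genes whose intervals of mean ± SD overlapped. At 6 months Col9a3 (45.4 ± 9.04 TPM) and Col11a2 (29.2 ± 4.10 TPM) led, Col16a1 stood at 18.3 ± 3.64 TPM, and Col4a1 (14.3 ± 4.12 TPM), Col4a2 (12.3 ± 1.62 TPM) and Col20a1 (9.37 ± 4.51 TPM) followed. Astrocytes of 6 months had Col11a2 at 70.2 ± 15.4 TPM (n = 5), Col8a2 at 34.4 ± 5.22, Col9a3 at 30.6 ± 7.47, Col5a3 at 26.1 ± 3.28, Col16a1 at 20.9 ± 5.75 and Col4a2 at 19.1 ± 2.45 TPM. In the pair of 10 month libraries Col11a2 was at 156 ± 18.3 TPM, Col5a3 at 50.7 ± 2.95, Col8a2 at 49.4 ± 6.78, Col9a3 at 46.6 ± 5.68, Col16a1 at 41.6 ± 9.48 and Col4a2 at 28.3 ± 5.45 TPM.

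Microglia showed mainly 1 collagen gene. Col27a1, a fibrillar chain, had 332 ± 47.3 CPM at 3 months (SD, n = 3), while Col6a3, a chain of collagen VI, had 17.8 ± 3.13 CPM and Col15a1, a multiplexin chain, 6.53 ± 1.42 CPM. Col14a1 (2.61 ± 0.71 CPM), Col9a3 (2.49 ± 0.61 CPM) and Col4a1 (2.20 ± 2.26 CPM) completed the first 6. At 10 months the order was Col27a1 (267 ± 31.5 CPM, n = 4), Col6a3 (20.1 ± 8.77), Col15a1 (10.7 ± 2.86), Col8a1 (3.55 ± 3.26), Col14a1 (3.35 ± 1.87) and Col9a3 (2.46 ± 1.398 CPM). Only 33 of 44 members had a count in any microglial library, in libraries that record 3′ ends, where CPM is not comparable with the other tables.

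Vehicle cultures were richest by CPM in Col1a1 (864 ± 749 CPM, SD, n = 3), Col5a2 (714 ± 121), Col4a1 (634 ± 262), Col1a2 (617 ± 480), Col4a2 (314 ± 175) and Col3a1 (286 ± 225 CPM). Omomyc cultures had Col1a1 at 854 ± 662, Col5a2 at 792 ± 30.8, Col4a1 at 625.3 ± 207, Col1a2 at 567.6 ± 394, Col3a1 at 389 ± 288 and Col4a2 at 310 ± 161 CPM. The large SDs of the type I, III and IV genes came from library 3, described with the treatment below. The heat map of all members by library shows these profiles side by side.

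**Figure D1:**
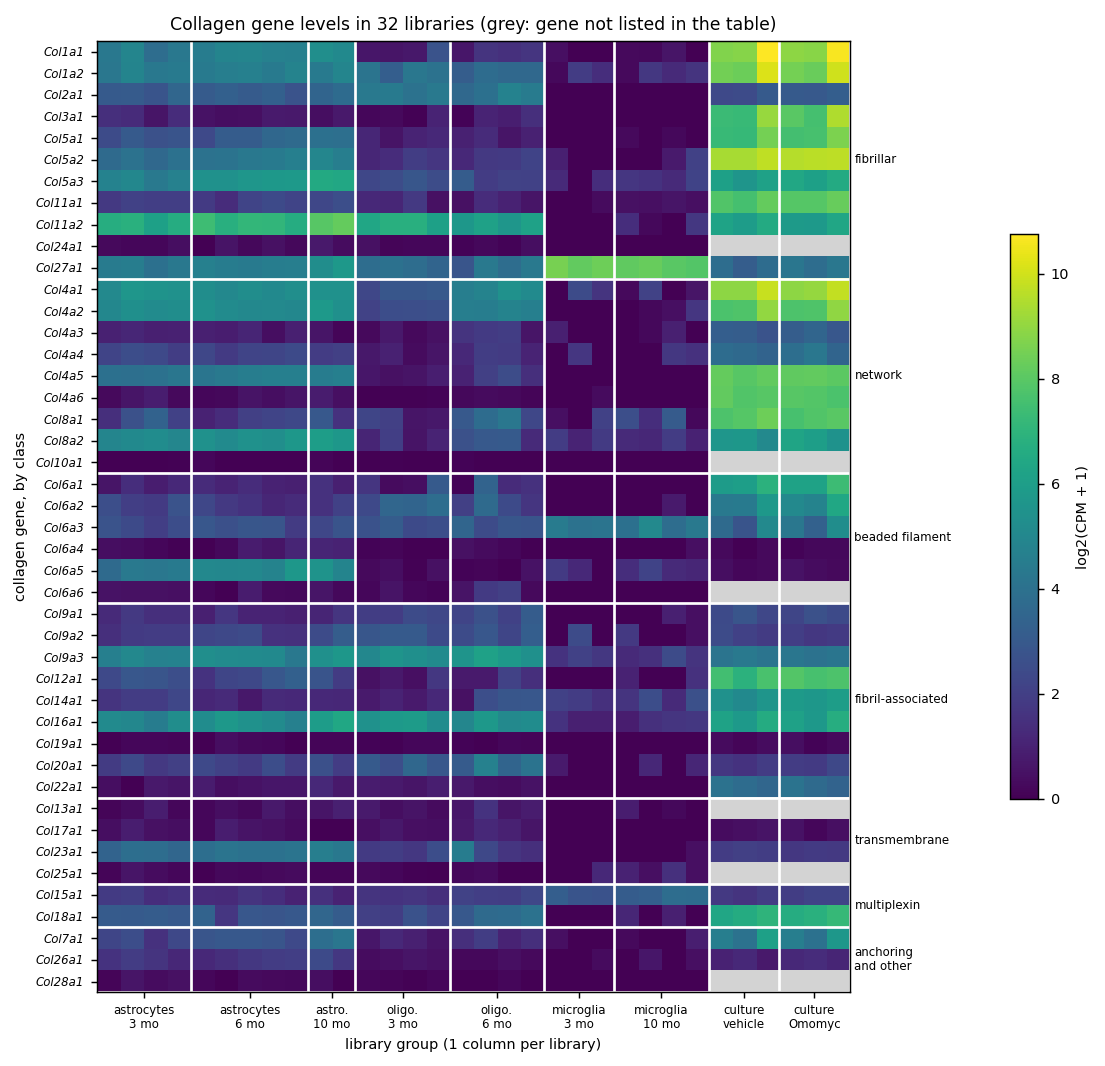
Each row is a collagen gene, grouped by class, and each column 1 of 32 libraries, grouped by cell type, age or treatment; color is log2(CPM + 1) and grey marks genes without a row in the culture table. Within a row, Col27a1 stands out in microglia, Col6a5 in sorted astrocytes, and Col1a1, Col3a1 and Col4a6 in culture. Only sorted astrocytes and oligodendrocytes share a kit, so kit and cell type cannot be told apart in the other contrasts. CPM is not scaled by gene length, so rows are not compared with one another.

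Astrocytes and oligodendrocytes of 3 and 6 months were prepared with the same kit and were compared in 1 fit of 17 libraries (n = 9 and 8). Of 34 collagen genes tested, 16 were higher in astrocytes, where 38.7% of all genes tested were, and 10 were higher in oligodendrocytes, where 35.9% of all genes were. The median log2 difference over the members was 0.28, against 0.03 over all genes. Network chains leaned to astrocytes, with 5 of 7 higher and none lower, and fibrillar chains too, with 6 of 10 higher and 1 lower. Fibril-associated chains leaned to oligodendrocytes, with 5 of 7 higher there and 1 lower.

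Col6a5, a chain of collagen VI, ranged from 12.1 through a median of 26.7 to 50.7 CPM in astrocytes and from 0 through 0.165 to 0.437 CPM in oligodendrocytes, a log2 difference of 6.72 ± 0.28 (SE, adjusted p = 2.46e-14). All 9 astrocyte libraries lay above all 8 oligodendrocyte libraries. Col6a4, Col6a5 and Col6a6 are neighbours on chromosome 9 that are close in sequence, so reads may be split between them and the value of each alone is uncertain.

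The collagen V chains, which are built into mixed fibrils, were all higher in astrocytes. Col5a3 ranged from 19.3 through a median of 42.1 to 54.8 CPM in astrocytes and from 2.79 through 4.26 to 7.69 CPM in oligodendrocytes (log2 difference 2.61 ± 0.17, adjusted p = 3.01e-11). Col5a2 differed by 2.53 ± 0.17 and Col5a1 by 2.47 ± 0.24 (adjusted p = 1.66e-11 and 8.95e-09), and neither overlapped between the cell types. Of the collagen I genes, which encode the main fibril of connective tissue, Col1a1 differed by 3.45 ± 0.39 (adjusted p = 7.01e-07) and Col1a2 by 0.47 ± 0.14 (adjusted p = 0.00542). At 13.3 to 29.1 CPM in astrocytes Col1a1 was above its 0.513 to 5.72 CPM in oligodendrocytes. The ranges of Col1a2, 18.4 to 28.2 and 7.93 to 18.4 CPM, met at their ends. The CPM of each table were scaled separately, so whether the libraries of Col1a2 overlap cannot be told. Col11a1 was higher in astrocytes by 1.10 ± 0.28 (adjusted p = 0.00156). At 3 months alone Col1a2 (0.16, adjusted p = 0.496) and Col11a1 (0.69, adjusted p = 0.135) did not pass.

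Among network chains Col4a5, a basement membrane chain, had 14.3 to 24.1 CPM (median 17.4) in astrocytes and 0.410 to 4.62 CPM (median 0.951) in oligodendrocytes, a log2 difference of 3.57 ± 0.21 (adjusted p = 2.13e-12). Col8a2 differed by 3.36 ± 0.26 (adjusted p = 3.96e-09) with no overlap. Col4a2 (1.404 ± 0.09, adjusted p = 9.22e-12), Col4a1 (1.17 ± 0.13, adjusted p = 5.06e-08) and Col4a4 (1.405 ± 0.24, adjusted p = 1.70e-05) were higher in astrocytes over both ages. At 6 months alone the difference was 0.21 for Col4a2 and 0.54 for Col4a4 (adjusted p = 0.11 for both) and -0.12 for Col4a1 (adjusted p = 0.53). Endothelial markers summed to 235 to 439 CPM in astrocytes and 78.5 to 101 CPM in oligodendrocytes at 3 months, and to 175 to 393 and 284 to 852 CPM at 6 months. Mural markers summed to 432 to 548 and 82.6 to 145 CPM at 3 months, and to 416 to 597 and 275 to 555 CPM at 6 months. Fibroblast and meningeal markers summed to 1472 to 1680 CPM in astrocytes and 1939 to 2146 CPM in oligodendrocytes at 3 months. At 6 months these sums were 719 to 1233 and 1676 to 8142 CPM. Choroid plexus markers summed to 2195 to 3896 and 3536 to 4769 CPM at 3 months, and to 1183 to 1698 and 2991 to 8000 CPM at 6 months. The part of these lists in the differences between the cell types was not tested. Col26a1 (2.45 ± 0.26) and the anchoring fibril chain Col7a1 (1.53 ± 0.23) were also higher in astrocytes (adjusted p = 2.93e-08 and 4.12e-06).

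Col2a1 and the collagen IX chains were higher in oligodendrocytes. Col2a1, which makes the main fibril of cartilage, had 11.5 to 25.9 CPM (median 19.3) there and 5.74 to 10.7 CPM (median 7.49) in astrocytes. The gap between these ranges is small and the CPM of each table were scaled separately, so it is not read as a separation. The log2 difference, astrocytes minus oligodendrocytes, was -1.57 ± 0.15 (adjusted p = 6.95e-09). The 3 collagen IX chains, which coat collagen II fibrils, moved the same way, with Col9a1 at -1.81 ± 0.22, Col9a2 at -1.45 ± 0.21 and Col9a3 at -0.94 ± 0.13 (adjusted p = 1.60e-07, 2.29e-06 and 3.53e-06). Col20a1 differed by -2.01 ± 0.24 (adjusted p = 3.43e-07). Col6a2 at -1.64 ± 0.33 and Col16a1 at -0.63 ± 0.15 passed as well (adjusted p = 0.000265 and 0.00138), Col16a1 at 3 but not at 6 months (-0.26, adjusted p = 0.28). Of the genes named in every comparison, those that did not pass were Col3a1 (0.29 ± 0.46, adjusted p = 0.585), Col6a1 (-1.62 ± 0.72, adjusted p = 0.0526) and Col18a1 (-0.28 ± 0.20, adjusted p = 0.204). The other genes called were Col12a1 (1.80) and Col23a1 (1.16), higher in astrocytes, and Col15a1 (-0.76), Col6a3 (-0.66) and Col17a1 (-0.86), higher in oligodendrocytes. Col23a1 did not pass at 6 months alone (0.75, adjusted p = 0.223) or with no filter (adjusted p = 0.0522), and stood at 1.89 without oligodendrocyte library 1 of 6 months. At 3 months alone Col15a1 (-0.19, adjusted p = 0.496) and Col17a1 (-0.32, adjusted p = 0.566) did not pass. Col17a1 was also lost with DESeq2 (adjusted p = 0.0536), with no filter (adjusted p = 0.0621) and without astrocyte library 4 of 3 months, oligodendrocyte library 2 of 3 months or oligodendrocyte library 2 of 6 months (adjusted p = 0.0549, 0.0648 and 0.0575).

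In astrocytes, several collagen genes rose with age. At 10 months 16 of 34 collagen genes were higher than at 3 months (n = 2 and 4), against 11.5% of all 16189 genes tested, and 1 was lower, against 11.2% of all genes. The median log2 fold change was 0.54 over the members and 0.02 over all genes. Fibrillar chains took the largest part, with 6 of 10 tested higher. The comparisons of 6 with 3 and of 10 with 3 months share the 3 month libraries, and those of 10 with 3 and of 10 with 6 months share the 10 month libraries.

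Col5a3 had 26.1, 30.4, 19.3 and 25.2 CPM in the 3 month libraries, 43.0, 42.1, 49.5, 51.8 and 54.8 CPM at 6 months and 91.7 and 85.1 CPM at 10 months. The 3 ages did not overlap, and the log2 fold change was 0.94 ± 0.12 from 3 to 6 months, 0.87 ± 0.13 from 6 to 10 months and 1.81 ± 0.14 from 3 to 10 months (SE, adjusted p = 0.000505, 0.00998 and 3.14e-06).

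Col11a2, the most abundant collagen transcript per length, had 104, 114, 68.1 and 98.9 CPM at 3 months, 170.4, 110.2, 140.2, 134 and 100.2 CPM at 6 months and 250.0 and 298 CPM at 10 months. The 3 and 6 month libraries overlapped, and both 10 month libraries lay above all others. It rose by 1.51 ± 0.19 on the log2 scale from 3 to 10 months and by 1.06 ± 0.18 from 6 to 10 months (adjusted p = 0.000228 and 0.0162), while the 0.44 ± 0.16 from 3 to 6 months did not pass (adjusted p = 0.0692). Col27a1 had 14.5 to 22.3 CPM at 3 months, 20.7 to 25.03 at 6 months and 37.9 and 52.6 CPM at 10 months, above all others. Its log2 fold change was 1.23 ± 0.16 over 3 months and 0.998 ± 0.15 over 6 months (adjusted p = 0.00017 and 0.00998).

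**Figure D2:**
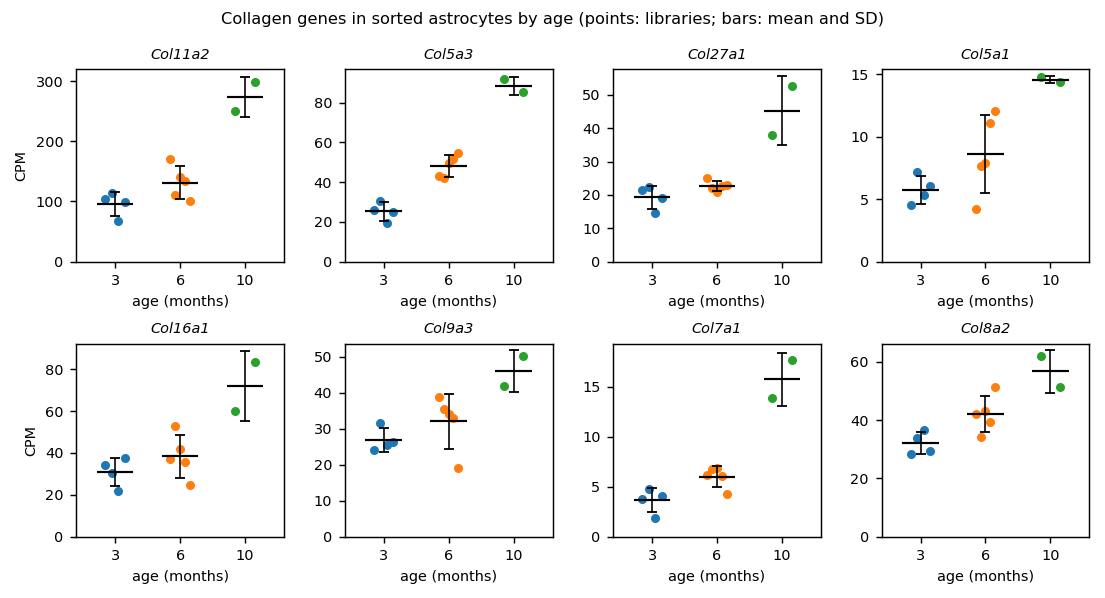
CPM of 8 collagen genes (y axes, each from 0) against age in months for sorted astrocytes (4, 5 and 2 libraries); points are libraries, horizontal bars means and error bars SD. In each panel both 10 month points lie above every 3 month point, and for Col5a3 the 6 month libraries (42.1 to 54.8 CPM) lie between the other ages.

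The other fibrillar genes that rose from 3 to 10 months were Col5a1, Col5a2 and Col1a1. Col5a1 went from 4.53, 7.20, 5.30 and 6.02 CPM to 14.8 and 14.4 CPM (1.34 ± 0.28, adjusted p = 0.00328). Col5a2 had 11.3 to 15.7 CPM at 3 months and 30.0 and 23.3 CPM at 10 months (0.96 ± 0.18, adjusted p = 0.00159), and Col1a1 had 13.3 to 29.1 and then 38.5 and 33.5 CPM (0.84 ± 0.20, adjusted p = 0.0064). Col1a2, the partner of Col1a1 in collagen I, had 18.4 to 28.2 CPM at 3 months and 20.7 and 28.8 CPM at 10 months, with a log2 fold change of 0.22 ± 0.18 (adjusted p = 0.403). Col3a1 at -1.45 ± 0.55 and Col11a1 at 0.59 ± 0.31 did not pass (adjusted p = 0.066 and 0.18).

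Collagen VII, whose single gene Col7a1 encodes the anchoring fibril of skin, gave 3.77, 4.75, 1.90 and 4.10 CPM at 3 months, 6.15, 6.73, 6.81, 6.05 and 4.22 CPM at 6 months and 13.8 and 17.6 CPM at 10 months. Its 10 month libraries lay above all others, and 1 library of 6 months fell among those of 3 months. The log2 fold change was 2.09 ± 0.25 from 3 to 10 months, 1.399 ± 0.23 from 6 to 10 months and 0.69 ± 0.22 from 3 to 6 months (adjusted p = 0.000123, 0.0121 and 0.0441).

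In the network class Col8a2 rose from 28.5, 33.7, 36.7 and 29.5 CPM to 62.0 and 51.5 CPM at 10 months (0.83 ± 0.15, adjusted p = 0.0011). Col4a5 had 14.3 to 17.4 CPM at 3 months and 21.6 and 24.3 CPM at 10 months (0.57 ± 0.15, adjusted p = 0.0131). Col4a2 had 30.7 to 40.2 and then 54.3 and 41.6 CPM (0.42 ± 0.15, adjusted p = 0.0462), a call that RLE scaling, DESeq2, a fit of the 2 ages alone and the GC correction described below did not keep (adjusted p = 0.052 to 0.741). Its partner Col4a1 had 32.6, 49.1, 45.6 and 41.9 CPM at 3 months and 42.5 and 42.1 CPM at 10 months, a log2 fold change of 0.00 ± 0.14 (adjusted p = 0.989).

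The fibril-associated genes Col16a1 (22.0 to 37.6 CPM, then 60.004 and 83.8 CPM), Col9a3 (23.9 to 31.5, then 41.8 and 50.1 CPM) and Col9a2 (1.73 to 2.75, then 4.5 and 8.07 CPM) rose from 3 to 10 months by 1.198 ± 0.24, 0.78 ± 0.20 and 1.36 ± 0.36 (adjusted p = 0.0033, 0.0107 and 0.0133). Of the transmembrane class only Col23a1 was tested, and it rose from 9.81 to 13.7 CPM to 23.6 and 18.7 CPM (0.84 ± 0.17, adjusted p = 0.00211). Col6a5 had 12.1 to 20.5 and then 44.5 and 27.9 CPM (1.03 ± 0.25, adjusted p = 0.0105), and Col6a4, at under 0.33 CPM in each 3 month library and 1.18 and 1.02 CPM at 10 months, 2.63 ± 0.80 (adjusted p = 0.025), both with the uncertainty of sequence noted above. Col14a1, a fibril-associated chain, fell from 2.05, 2.72, 2.72 and 3.94 CPM to 1.39 and 1.30 CPM (-1.12 ± 0.39, adjusted p = 0.0483), a call that DESeq2 and a fit with no filter did not keep (adjusted p = 0.0608 and 0.0849). Col6a1 (0.35 ± 0.46), Col6a2 (-0.68 ± 0.41) and Col18a1 (0.31 ± 0.30) did not pass (adjusted p = 0.62, 0.249 and 0.496).

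With 2 libraries at 10 months, leaving out 1 of them leaves a lone library that is assumed to vary like the other groups. Without 10 month library 1, 9 of the 34 were called, and the calls of Col1a1, Col4a2, Col4a5, Col5a2, Col6a4, Col6a5, Col14a1 and Col23a1 were lost, with adjusted p of 0.050 to 0.49. Without 10 month library 2 the calls of Col4a5, Col6a4, Col9a2, Col9a3 and Col14a1 were lost (adjusted p = 0.088 to 0.24). Leaving out single 3 month libraries also ended the calls of Col4a2, Col6a4 and Col14a1 (adjusted p = 0.050 to 0.15). Col5a1, Col5a3, Col7a1, Col8a2, Col11a2, Col16a1 and Col27a1 were called in every alternative run.

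Collagen transcripts are rich in G and C, and in astrocytes fold change varied with that property. The median GC share of the longest transcript was 56.3% for the 34 tested members and 49.5% for all genes. Over the 15920 genes with a value, the log2 fold change from 3 to 10 months had a Spearman rho of 0.39 with GC share, which describes genes and not independent replicates, and genes of 55 to 60% GC had a median change of 0.27. With a per-library GC correction, chosen after seeing the data, 13 of the 34 members were higher, against 8.71% of all genes, and none was lower. Col5a3 then rose by 1.43 ± 0.17, Col7a1 by 1.71 ± 0.23 and Col11a2 by 1.10 ± 0.15 (adjusted p = 0.000232, 0.000529 and 0.000711). The calls of Col1a1 (0.55, adjusted p = 0.0682), Col4a2 (0.08, adjusted p = 0.741), Col9a2 (0.95, adjusted p = 0.0659) and Col14a1 (-1.12, adjusted p = 0.0571) were lost. A joint correction for GC and length also left 13 higher, where 1396 of all 16189 genes were higher. With it Col9a3 was lost too (0.42, adjusted p = 0.0802) and Col1a1 was called (0.66, adjusted p = 0.0343).

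From 3 to 6 months 6 of 34 collagen genes were higher, against 6.28% of all genes, and 3 were lower, against 8.29%. The median log2 fold change was 0.21 for the members and 0.00 for all genes. Col5a3 is described above. Col6a5 rose from 12.1, 19.3, 18.5 and 20.5 CPM to 31.2, 30.8, 31.2, 26.7 and 50.7 CPM, with no overlap (0.95 ± 0.21, adjusted p = 0.00809). Col4a5 (0.49 ± 0.12), Col8a2 (0.40 ± 0.12) and Col5a2 (0.47 ± 0.15) rose with overlapping libraries (adjusted p = 0.0129, 0.0295 and 0.0357), as did Col7a1. The GC correction left 4 higher and 3 lower, where 970 of all 16189 genes were higher and 1345 lower. Col8a2 (0.28, adjusted p = 0.19) and Col7a1 (0.51, adjusted p = 0.104) were not among them.

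The 3 genes that fell by 6 months were low throughout. Col14a1 had 2.05 to 3.94 CPM at 3 months and 1.199, 1.44, 0.619, 1.43 and 1.35 CPM at 6 months, with no overlap (-1.31 ± 0.30, adjusted p = 0.00779). Col3a1, a fibrillar chain of soft connective tissue, had 1.73, 1.49, 0.543 and 1.56 CPM and then 0.320 to 0.715 CPM (-1.36 ± 0.40, adjusted p = 0.0294). Col6a2 had 4.96, 2.99, 2.58 and 5.66 CPM and then 1.24 to 3.90 CPM (-1.02 ± 0.32, adjusted p = 0.0414). Not passing were Col1a1 (0.38 ± 0.16), Col1a2 (0.12 ± 0.14), Col4a1 (-0.24 ± 0.11), Col4a2 (-0.06 ± 0.12), Col6a1 (0.15 ± 0.36), Col11a1 (0.18 ± 0.25), Col16a1 (0.28 ± 0.20) and Col18a1 (-0.23 ± 0.24), with adjusted p from 0.124 to 0.828. The count fell to 4 without 3 month library 1, 3 without 3 month library 4 and 4 without 6 month library 3. Col5a3, Col6a5 and Col4a5 were called with each library left out, Col14a1 without any but 3 month library 4 (-1.04, adjusted p = 0.062), and each of the other 5 was lost in 3 to 7 of 9 such fits (adjusted p = 0.050 to 0.21).

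From 6 to 10 months 4 of 34 rose, Col27a1, Col5a3, Col7a1 and Col11a2, against 0.574% of all genes, and none fell. The median log2 fold change was 0.46 for the members and 0.02 for all genes. Without 10 month library 2 none of the 4 was called (adjusted p = 0.071 to 0.22), and without 10 month library 1 Col5a3 was not (0.81, adjusted p = 0.068), nor was Col5a3 with the GC correction (0.65, adjusted p = 0.0899). Col16a1 at 0.92 ± 0.23 (adjusted p = 0.0706), Col4a2 at 0.48 ± 0.14, Col1a1 at 0.47 ± 0.19, Col18a1 at 0.53 ± 0.29 and Col4a1 at 0.24 ± 0.14 (adjusted p = 0.0987 to 0.381) did not pass. Col1a2, Col3a1, Col6a1, Col6a2 and Col11a1 lay between -0.09 and 0.41 (adjusted p = 0.513 to 0.959).

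Markers of other cells also moved with age in the astrocyte libraries. Of all genes tested, 11.5% were higher and 11.2% lower at 10 than at 3 months. From 3 to 10 months 5 of 12 endothelial markers were lower and none higher, and their sum was 235 to 439 CPM at 3 months, 175 to 393 at 6 months and 139 and 235 CPM at 10 months. Choroid plexus markers fell (6 of 8, sums of 2195 to 3896 and then 949 and 1148 CPM), as did 3 of 12 tested fibroblast and meningeal markers (1472 to 1680, then 966 and 1023 CPM) and 2 of 11 tested mural markers (432 to 548, then 425 and 357 CPM). Oligodendrocyte precursor markers were higher in 5 of 10 (63.6 to 109 CPM, then 119 and 107 CPM), 3 of 9 tested microglial markers rose and 5 of 10 myelin markers fell. None of the markers of these lists was at 0 in every library of an age. Their part in the collagen values was not tested.

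Genes that fold, process, break down or bind collagen were counted in ageing astrocytes from 3 to 10 months, where 11.5% of all genes were higher and 11.2% lower. Of 21 folding and modifying genes 4 rose and 1 fell. P3h3, a collagen prolyl 3-hydroxylase family member, rose by 0.97 ± 0.17 and Fkbp10, an endoplasmic reticulum chaperone of procollagen, by 0.64 ± 0.16 (adjusted p = 0.00107 and 0.00794), and P4ha1, a prolyl 4-hydroxylase subunit, fell by 0.44 ± 0.11 (adjusted p = 0.0103). Of 10 tested processing and cross-linking genes 2 rose, among them Loxl3 of the lysyl oxidase family (0.57 ± 0.16, adjusted p = 0.0158), and 3 fell. No gene of 10 tested for collagen breakdown passed. Of 10 tested receptors Ddr1 (0.43 ± 0.13) and Itga11 (1.46 ± 0.50) rose and Itga1 (-1.44 ± 0.27) and Itgb1 (-0.56 ± 0.11) fell. Among 16 basement membrane partners 5 rose, led by the laminin chains Lama5 (0.76 ± 0.14) and Lamb2 (0.59 ± 0.14), and 3 fell, Lama4 (-1.03 ± 0.26), Lamc1 (-0.43 ± 0.11) and Nid1 (-1.05 ± 0.34).

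In oligodendrocytes, network chains and multiplexins took the largest part of the collagen genes that rose with age. At 6 months 9 of 29 tested were higher than at 3 months (n = 4 and 4), against 14.9% of all 14050 genes tested, and 1 was lower, against 9.46%. The median log2 fold change was 0.50 over the members and 0.02 over all genes. All 6 tested network chains and both multiplexins rose, with medians of 2.34 and 1.17. No fibrillar chain of 10 rose. Col4a2, Col4a5 and Col8a2 were higher both here and in astrocytes of 10 over 3 months.

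Col4a1 had 3.89, 6.41, 6.34 and 7.11 CPM at 3 months and 23.2, 27.4, 42.4 and 34.7 CPM at 6 months, and Col4a2 had 3.34, 4.77, 4.96 and 5.18 CPM and then 23.2, 22.7, 27.4 and 24.0 CPM. Every 6 month library was above every 3 month library for both genes of the pair. Their log2 fold changes were 2.42 ± 0.23 and 2.41 ± 0.14, a 5.36-fold and a 5.32-fold rise (adjusted p = 0.00025 and 3.24e-05). The share of Col4a2 in the counts of the pair was 42.1 to 46.2% at 3 months and 39.2 to 50.0% at 6 months.

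The other tested collagen IV chains, which replace the common chains in specialised basement membranes, were lower in level. Col4a5 rose from 0.556, 0.410, 0.460 and 0.850 CPM to 1.05, 3.15, 4.62 and 1.75 CPM (2.26 ± 0.47, adjusted p = 0.00674) and Col4a4 from 0.625, 0.975, 0.256 and 0.541 CPM to 1.38, 2.91, 2.68 and 1.09 CPM (1.76 ± 0.44, adjusted p = 0.0158), both without overlap. Collagen VIII, found in vessel walls, showed Col8a1 at 3.68, 3.08, 0.512 and 0.618 CPM and then 7.04, 12.9, 18.5 and 3.82 CPM (2.43 ± 0.69, adjusted p = 0.0363) and Col8a2 at 0.460 to 3.03 CPM and then 5.42, 6.96, 7.15 and 1.42 CPM (1.86 ± 0.59, adjusted p = 0.0466). Col8a1 just did not overlap, and 1 library of 6 months lay within the 3 month range of Col8a2.

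The multiplexin Col18a1, whose cleaved end is endostatin, had 3.13, 2.82, 5.47 and 3.63 CPM at 3 months and 6.88, 12.05, 12.6 and 15.5 CPM at 6 months (1.63 ± 0.27, adjusted p = 0.00258), without overlap. Col15a1 had 1.70 to 2.15 and then 2.83 to 3.82 CPM (0.71 ± 0.20, adjusted p = 0.0286). Col14a1 had 0.695, 1.08, 0.716 and 1.39 CPM and then 0.405, 4.97, 6.25 and 6.66 CPM (2.24 ± 0.65, adjusted p = 0.034), so that 6 month library 1 lay below all 3 month libraries. Col11a2, high in both ages, fell from 81.0, 109.5, 109.7 and 68.3 CPM to 51.2, 71.0, 49.0 and 70.9 CPM (-0.61 ± 0.18, adjusted p = 0.0391), with overlap.

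**Figure D3:**
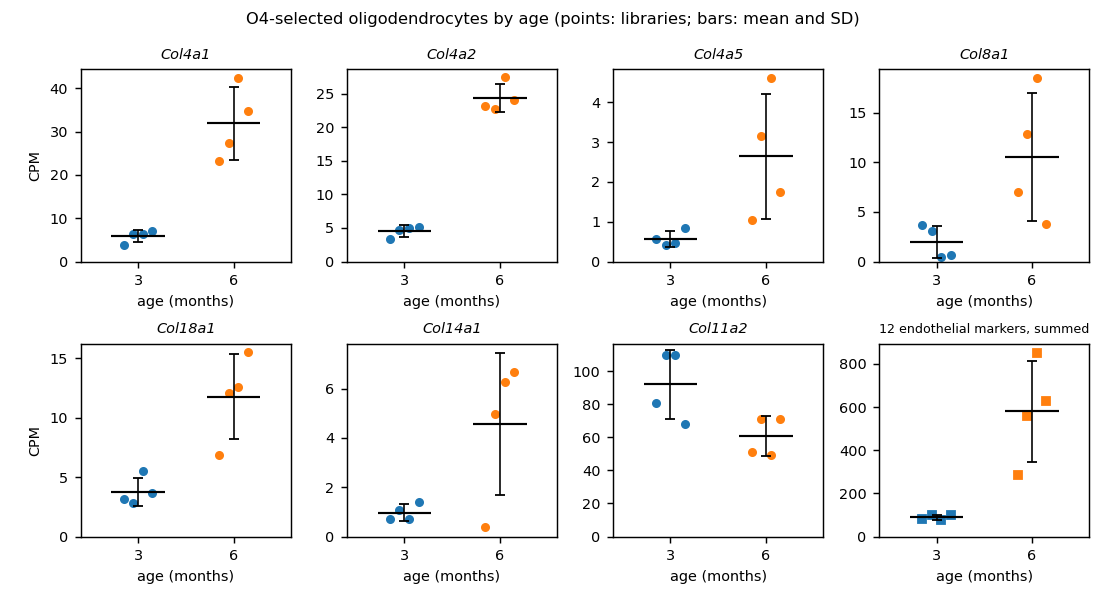
CPM of 7 collagen genes and the summed CPM of 12 endothelial markers (y axes, each from 0) in O4-selected oligodendrocytes at 3 and 6 months (4 libraries each); points are libraries, bars mean and SD. Col4a1, Col4a2, Col4a5, Col8a1, Col18a1 and the endothelial sum do not overlap between ages, and Col14a1 has 1 low library at 6 months (0.405 CPM).

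Markers of vessel cells rose in the same libraries. All 12 endothelial markers rose, with a summed level of 82.1, 101, 78.5 and 98.1 CPM at 3 months and 284, 560, 852 and 627 CPM at 6 months, and library 3 of 6 months was highest for this sum and for Col4a1, Col4a2, Col4a5, Col8a1 and Col8a2. Col4a4 was highest in library 2 of that age, and Col14a1, Col15a1 and Col18a1 were highest in library 4. Library 3 was also highest for the choroid plexus sum. That sum was 3536 to 4769 CPM at 3 months and 4723, 7339, 8000 and 2991 CPM at 6 months. Library 4 came after library 3 for the endothelial sum, but was the lowest of that age for Col8a1, Col8a2 and the choroid plexus sum. Of 10 tested mural markers 9 rose, with sums of 82.6 to 145 and then 275 to 555 CPM. Among further lists 2 of 10 tested fibroblast and meningeal markers, 1 of 8 choroid plexus markers and 4 of 8 neuronal markers were higher. Of all genes tested, 14.9% were higher and 9.46% lower. Myelin markers were lower in 7 of 10 and higher in 2, with sums of 81636 to 111209 CPM at 3 months and 107201 to 168940 CPM at 6 months. The Schwann cell list summed to 19637 to 40790 CPM and then 49952 to 104227 CPM, without overlap; of its 5 tested genes the myelin gene Mbp rose (1.55 ± 0.30, adjusted p = 0.00652), Pmp22 fell (-0.83 ± 0.11) and 3 did not pass. None of the endothelial or mural markers was at 0 in every library of an age, and the part of these lists in the rise of the collagen genes was not tested.

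Calls of Col4a1, Col4a2, Col4a5 and Col18a1 were kept with every library left out and in the other alternatives. The count was 6 without 3 month library 3, without 6 month library 2 and without 6 month library 3. Col4a4 was lost without 6 month library 2 (1.505, adjusted p = 0.061), and Col8a1, Col8a2, Col11a2, Col14a1 and Col15a1 were each lost in 5 to 7 of 8 such fits (adjusted p = 0.055 to 0.12). With no filter Col8a1, Col8a2 and Col15a1 were not called (adjusted p = 0.162, 0.0808 and 0.157). Of the genes named in every comparison, Col1a1 (-0.09 ± 0.85), Col1a2 (-0.42 ± 0.24), Col3a1 (1.46 ± 0.86), Col5a3 (-0.21 ± 0.32), Col6a1 (0.52 ± 1.25), Col6a2 (-0.78 ± 0.53), Col11a1 (-0.57 ± 0.53) and Col16a1 (-0.36 ± 0.20) did not pass (adjusted p = 0.234 to 0.949).

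Collagen partners were read against the 14.9% of all genes that were higher and the 9.46% that were lower. Of 14 tested basement membrane partners 10 rose and 2 fell, with Lamc3 at 2.93 ± 0.30, Lama5 at 2.68 ± 0.24 and Lamb2 at 2.36 ± 0.23 (all laminin chains) and Nid1, a nidogen that links laminin to type IV, at -1.69 ± 0.17 (adjusted p = 0.000265, 0.000213, 0.000277 and 0.000291). Of 20 tested folding genes 4 rose, such as the chaperone Serpinh1 (0.91 ± 0.15) and P4ha2 (2.78 ± 0.51), and 4 fell, such as Colgalt2 (-1.09 ± 0.17). Processing genes rose in 3 of 9 tested, Adamts14 (2.88 ± 0.48), Pcolce (1.85 ± 0.34) and Lox (1.51 ± 0.47), and fell in 2. Of 9 tested breakdown genes only the inhibitor Timp3 rose (1.54 ± 0.13), while Mmp2 (-1.10 ± 0.14), Mmp15 (-1.53 ± 0.18), Mmp16 (-1.23 ± 0.25) and Ctsk (-0.70 ± 0.18) fell. Of 8 tested receptors 3 rose, Itga1 (2.78 ± 0.29), Itga10 (1.46 ± 0.30) and Ddr2 (1.61 ± 0.52), and none fell.

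The age effects of both cell types from 3 to 6 months were tested against each other in the joined fit. Of 34 collagen genes, 2 had a more positive change in astrocytes, against 6.44% of all genes, and 10 a more positive change in oligodendrocytes, against 9.97%. The sign gives direction and not which change was larger. Col11a2, counted toward astrocytes, rose there without passing and fell in oligodendrocytes, where it passed. The median difference was -0.32 for the members and 0.02 for all genes. In the network class 6 of 7 differed, all toward oligodendrocytes, and both multiplexins did.

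The effect in astrocytes minus that in oligodendrocytes was -2.57 ± 0.25 for Col4a1 and -2.38 ± 0.18 for Col4a2 (adjusted p = 5.99e-06 and 2.81e-07). Col4a3 differed by -2.66 ± 0.64 (adjusted p = 0.00755), with oligodendrocyte libraries at 0.205 to 0.667 CPM at 3 months and 2.10, 2.54, 2.83 and 0.546 CPM at 6 months. Its level in astrocytes was 0.95 to 1.22 CPM and then 0.33 to 1.18 CPM. Col4a4 (-1.72 ± 0.47), Col4a5 (-1.71 ± 0.43), Col8a1 (-3.05 ± 0.89), Col18a1 (-1.77 ± 0.40) and Col15a1 (-1.13 ± 0.33) differed the same way (adjusted p = 0.00479 to 0.0286). So did Col14a1 (-3.45 ± 0.71, adjusted p = 0.00276), which fell in astrocytes and rose in oligodendrocytes, and Col3a1 (-2.73 ± 0.91, adjusted p = 0.0472).

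Toward astrocytes were Col5a3 (1.25 ± 0.33, adjusted p = 0.014) and Col11a2 (1.14 ± 0.27, adjusted p = 0.00803). Col3a1 was lost in 14 of 17 fits that left out a library (adjusted p = 0.050 to 0.10), as were Col8a1 in 6 (0.052 to 0.070), Col4a4 without oligodendrocyte 6 month library 2 (0.050) and Col15a1 without astrocyte 3 month library 2 (0.054). Of the genes named in every comparison, Col1a1 (0.48 ± 0.80), Col1a2 (0.62 ± 0.28), Col6a1 (-0.31 ± 1.46), Col6a2 (-0.16 ± 0.66), Col11a1 (0.83 ± 0.57) and Col16a1 (0.73 ± 0.31) did not pass (adjusted p = 0.121 to 0.916). All 12 endothelial and 10 of 12 mural markers differed in the same direction as collagen IV, where 9.97% of all genes did. Their part was not tested.

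**Figure D4:**
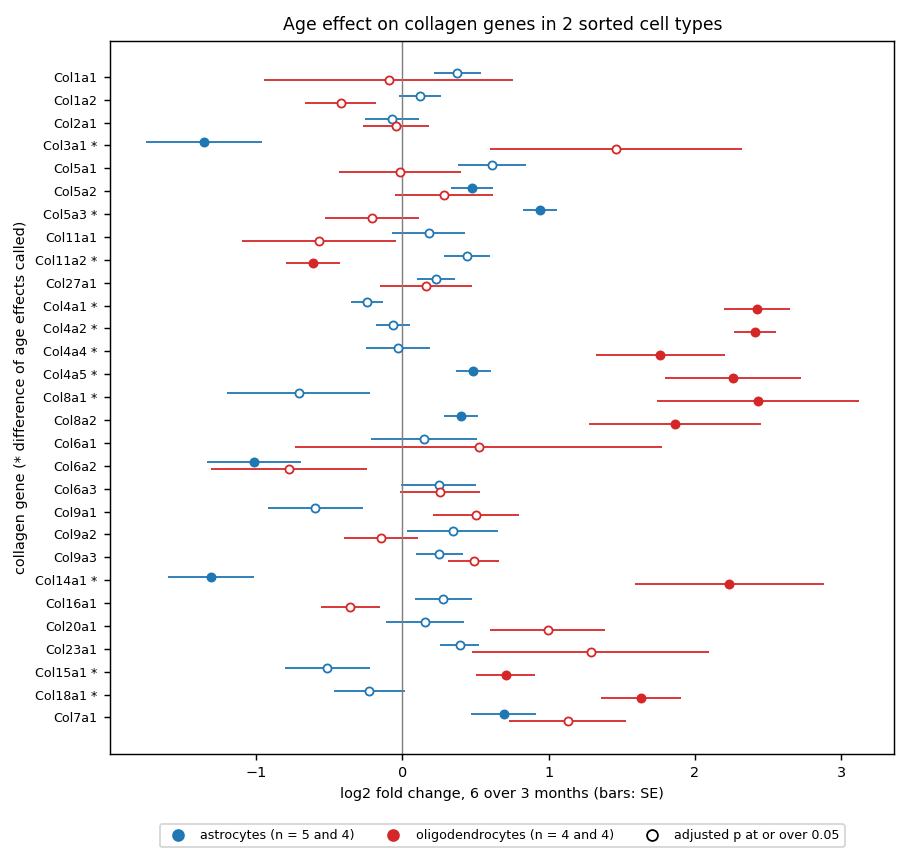
Log2 fold change from 3 to 6 months (x axis, bars are SE) of the 29 collagen genes tested in both tables. Astrocytes are blue (4 and 5 libraries) and oligodendrocytes red (4 and 4). Filled points passed at an adjusted p under 0.05, and a star marks a gene whose age effects differed. Col4a1 and Col4a2 lie near 2.4 in oligodendrocytes and near 0 in astrocytes, and Col5a3 at 0.94 in astrocytes.

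In microglia no collagen gene passed the test between 10 and 3 months. Of 12 tested, 0 were called by edgeR, against 3.21% of all 12320 genes, with 1 at an unadjusted p under 0.05, and DESeq2 called 0. The median log2 fold change was 0.27 over the 12 and 0.00 over all genes. Col27a1 had 378, 283 and 334 CPM at 3 months and 277, 306, 252 and 233 CPM at 10 months, which overlap (-0.31 ± 0.13, adjusted p = 0.232). Col6a3 had 21.4, 15.6 and 16.4 CPM and then 14.8, 32.7, 13.6 and 19.4 CPM (0.17 ± 0.33, adjusted p = 0.839). Col15a1 had 8.16, 5.88 and 5.55 CPM and then 7.83, 8.60, 13.4 and 12.8 CPM (0.70 ± 0.40, adjusted p = 0.405).

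The other tested genes of microglia had SEs of 0.76 to 1.63 on the log2 scale, so that several-fold differences were not detectable in these libraries. Of the genes named in every comparison, Col1a2 (0.04 ± 1.12), Col4a1 (-1.10 ± 1.37), Col5a3 (1.13 ± 1.08) and Col16a1 (0.49 ± 0.98) were tested, and none passed (adjusted p = 0.662 to 0.99). Among collagen partners the receptor list had 1 of 6 tested genes lower, and no gene passed in the folding, processing, breakdown and basement membrane lists.

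In culture, the libraries numbered 3 stood apart in collagen transcripts in both arms. Col1a1 had 415, 448 and 1728 CPM with vehicle and 485, 458 and 1618 CPM with Omomyc, and Col1a2 had 356, 324 and 1170.0 CPM and then 364, 317 and 1022 CPM. Library 3 of each arm was highest for both genes, and in vehicle it stood 4.00-fold above the mean of the other libraries for Col1a1, 3.49-fold for Col3a1, 2.42-fold for Col4a2 and 1.94-fold for Col4a1. Without a term for the number, 0 of 35 tested collagen genes were called by edgeR, against 0.0186% of all 16119 genes, with 3 at an unadjusted p under 0.05, and DESeq2 called 0. The lowest adjusted p was 0.67.

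Libraries of the same number deviated together in all 3 pairs, and the fit with the number as a block was therefore read beside the first. The labels do not state a pairing, which was inferred from these same counts. With the block 8 of 35 collagen genes were higher with Omomyc, against 2.23% of all genes, and none was lower, against 1.84% of all genes. The median log2 fold change was 0.16 over the members and 0.00 over all genes.

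Col5a3 had 68.0, 47.1 and 69.3 CPM with vehicle and 87.2, 67.9 and 93.3 CPM with Omomyc in the order of the pairs, so it was higher in 3 of 3 (0.44 ± 0.06 with the block, adjusted p = 0.00938). Col27a1 had 13.4, 8.03 and 13.1 and then 17.5, 13.4 and 18.1 CPM (0.52 ± 0.09, adjusted p = 0.0222). Col3a1 had 160.3, 153 and 546 and then 253, 193 and 719 CPM (0.47 ± 0.07, adjusted p = 0.0147). Of these fibrillar genes, all rose in each pair, while across pairs the vehicle and Omomyc values of Col3a1 and Col5a3 overlapped.

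In collagen VI, Col6a2 had 19.5, 20.8 and 51.7 CPM with vehicle and 32.5, 26.8 and 84.1 CPM with Omomyc (0.61 ± 0.08, adjusted p = 0.00892), and Col6a1 had 58.2, 63.9 and 119 and then 72.4, 72.4 and 163 CPM (0.32 ± 0.07, adjusted p = 0.038). Col6a3 at 0.43 ± 0.10 did not pass (adjusted p = 0.0555). Col14a1 had 42.3, 32.9 and 47.7 CPM and then 56.9, 50.8 and 62.6 CPM (0.48 ± 0.07, adjusted p = 0.0102), and this gene did not overlap between the arms. Col8a2 had 48.6, 50.4 and 32.5 CPM and then 76.4, 64.7 and 44.1 CPM (0.49 ± 0.07, adjusted p = 0.0122), and Col18a1 had 81.9, 96.0 and 125 and then 101, 111 and 145 CPM (0.25 ± 0.06, adjusted p = 0.0494).

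**Figure D5:**
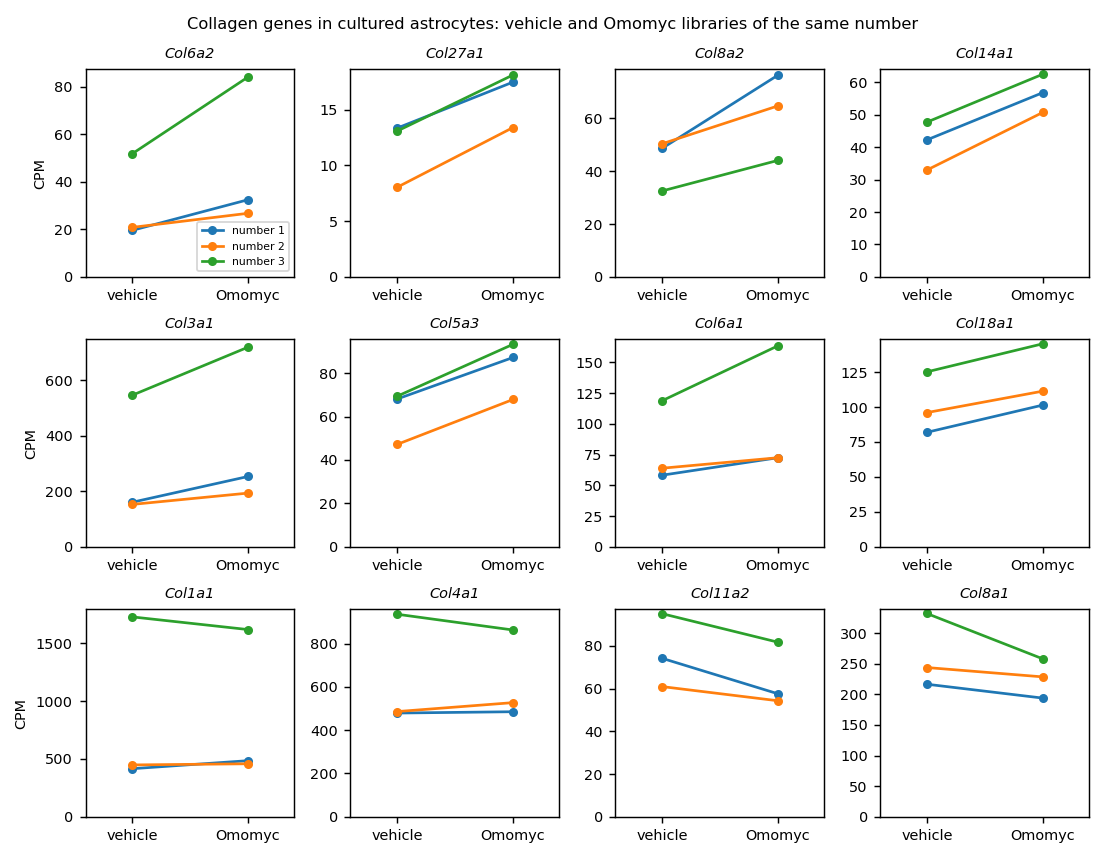
CPM (y axes, each from 0) of 12 collagen genes in cultured astrocytes, with lines joining the vehicle and Omomyc libraries of the same number (3 pairs). The first 8 panels are the genes called with the block and rise in each pair, and Col1a1, Col4a1, Col11a2 and Col8a1 are shown as abundant genes that were not called.

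Abundant genes that the block did not call were Col1a1 (0.05 ± 0.07), Col1a2 (-0.07 ± 0.07), Col4a1 (0.01 ± 0.07), Col4a2 (-0.00 ± 0.06), Col5a2 (0.16 ± 0.08), Col11a1 (0.15 ± 0.07) and Col16a1 (-0.02 ± 0.06), with adjusted p from 0.306 to 0.98. Without a block the genes named in every comparison stood at -0.02 ± 0.72 for Col1a1, -0.12 ± 0.64 for Col1a2, 0.44 ± 0.67 for Col3a1, -0.02 ± 0.33 for Col4a1, -0.02 ± 0.47 for Col4a2, 0.43 ± 0.18 for Col5a3, 0.36 ± 0.41 for Col6a1, 0.64 ± 0.55 for Col6a2, 0.13 ± 0.17 for Col11a1, 0.00 ± 0.29 for Col16a1 and 0.24 ± 0.19 for Col18a1. The blocked count was 6 without pair 1, 12 (9 higher, 3 lower) without pair 2 and 10 without pair 3, where 3.49%, 6.68% and 7.00% of all genes were called. Of the 8 genes called with the block, 2 lost their call without pair 1 and 2 without pair 3, and all 8 kept it without pair 2. Over all genes the unblocked log2 fold change had a Spearman rho of -0.23 with GC share and 0.32 with transcript length. With the block and a correction for both, 14 were called, 11 higher and 3 lower, and the share of all genes called was 7.08%, against 4.07% with the block alone. The lower ones were Col11a2 (-0.21, adjusted p = 0.0386), Col8a1 (-0.27, adjusted p = 0.0165) and Col4a6 (-0.18, adjusted p = 0.0479).

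Marker lists were read by pair as well. The endothelial list summed to 316, 289 and 231 CPM with vehicle and 406, 379 and 300 CPM with Omomyc, and the microglial list to 1616, 1938 and 2775 CPM and then 1911, 2225 and 3569 CPM, so that both sums were higher with Omomyc in every pair. The mural list, at 5124, 6516 and 5607 CPM and then 4620, 5029 and 4433 CPM, was lower in every pair. The fibroblast and meningeal list had 2651, 3902 and 3034 CPM and then 2879, 3477 and 2576 CPM, higher in pair 1 and lower in the other pairs. Their part in the collagen values was not tested.

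The balance within the type IV gene pairs was followed across the series. Col4a2 made up 43.4 to 48.6% of the counts of Col4a1 and Col4a2 in 3 month astrocytes, 42.1 to 46.2% in 3 month oligodendrocytes and 30.2 to 35.5% in vehicle cultures. Col4a6 made up 1.18 to 5.08% of the counts of Col4a5 and Col4a6 in 3 month astrocytes, 0 to 11.1% in 3 month oligodendrocytes, on 39 counts in all, and 46.0 to 49.5% in vehicle cultures. In vehicle cultures Col4a6 had 290.2, 229.7 and 245 CPM and Col4a5 had 296, 248 and 287 CPM, while sorted astrocytes of all ages had at most 0.82 CPM of Col4a6. Culture and sorted libraries were made with different kits, so this contrast is a description with no test. Reads from bases that overlapping genes share cannot be assigned to a strand here, since no source used here names the strand setting of the counting.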

How the data were processed

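Per the labels, sorted astrocytes and oligodendrocytes were sequenced with the CORALL mRNA V2 kit with molecular identifiers, microglia with QuantSeq 3′ and cultures with a Watchmaker kit with Twist identifiers. The tools listed in the submitters' processing notes are featureCounts 2.0.1, a read counter, STAR 2.7.7a, an aligner, fastp, a read trimmer, UMI-tools 1.0.1 and DESeq2. These notes list 3 builds (mm10, GRCm38.p6 and GRCm39) and do not tie a tool or build to a table. The authors deposited raw counts per gene for each of the 32 libraries, which were tested here, and TPM for sorted astrocytes and oligodendrocytes, which were used only to rank members. No source used here names the strand setting of the counting.

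CPM were counts scaled by library size, taken as the total over genes kept by the filter times the TMM factor of the library. Tests used edgeR 4.0.16 (R 4.3.3) with TMM scaling, filterByExpr with a minimum count of 10 and the robust quasi-likelihood F test. P-values were adjusted by Benjamini and Hochberg over all genes tested in a table, called at an adjusted p under 0.05, and SE was the log2 fold change over the square root of F. Astrocyte ages shared 1 fit, and astrocytes and oligodendrocytes of 3 and 6 months a joined fit with the age effect in each. The fit was tested on simulated counts with 200 changed genes. The members, gene lists and markers were chosen with earlier results of these data known. Genes named with values were the members called (at most 15 by p), the 6 highest per group, and Col1a1, Col1a2, Col3a1, Col4a1, Col4a2, Col5a3, Col6a1, Col6a2, Col11a1, Col16a1 and Col18a1 in every comparison, with up to 4 genes of each other list. Further genes were named after their values were seen, such as genes called beyond the 15 and culture genes set beside those called with the block.

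Alternatives were RLE scaling, no filter, DESeq2 1.42.0, only the ages compared, 1 age alone, the replicate number as a block, each library left out, and, chosen after seeing the data, corrections for GC and length (loess, span 0.5, prior count 2, GENCODE release M21 transcripts) and the block without 1 pair. In culture, same-numbered libraries deviated together (r = 0.628, 0.432 and 0.682), and the numbers were taken as pairs. The labels do not state a pairing. It was inferred from the numbers and from the same counts that were tested, and the culture calls with the block depend on it.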

Additional observations from a re-analysis of the deposited data

Results flagged for a closer look

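In 130 groups of 4 or 5 libraries 10 had a library far from the others of its group, where chance flags about 1 in 20. Oligodendrocyte library 4 of 3 months was highest in Col1a1 (5.72 CPM), and library 1 of 6 months was highest in Col23a1 (22.2 CPM) and Col5a3 (7.69 CPM); this library also carried 8142 CPM of fibroblast and meningeal markers against 1676 to 2122 CPM in the other 6 month libraries, whose part in these values was not tested. Among 3 month astrocytes, library 2 was highest in Col1a2 (28.2 CPM) and Col4a3 (1.22 CPM) and library 1 lowest in Col9a2 (1.73 CPM). Among 6 month astrocytes, library 5 was highest in Col6a5 (50.7 CPM) and lowest in Col9a3 (19.0 CPM), and library 2 was highest in Col9a1 (2.24 CPM). Microglial library 2 of 10 months was highest in Col4a1 (3.29 CPM).

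The change from 3 to 6 months differed between astrocytes and oligodendrocytes for 12 collagen genes by edgeR's interaction test. The difference (astrocytes minus oligodendrocytes, log2) was -2.57 for Col4a1, -2.38 for Col4a2, -2.66 for Col4a3, -1.72 for Col4a4, -1.71 for Col4a5, -3.05 for Col8a1, -3.45 for Col14a1, -1.13 for Col15a1, -1.77 for Col18a1, -2.73 for Col3a1, 1.25 for Col5a3 and 1.14 for Col11a2.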

How the results depend on the processing

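Counts of collagen genes called ranged, with each library left out in turn, from 3 to 11 in astrocytes from 3 to 6 months (9 with all libraries), 9 to 16 from 3 to 10 months (17), 0 to 5 from 6 to 10 months (4), 6 to 11 in oligodendrocytes (10), 25 to 29 between the cell types (26) and 9 to 14 for the difference of age effects (12). From 6 to 10 months in astrocytes, 9 were called with no filter, for which the share of all genes is not given here. With the replicate block 2 were called, where 0.346% of all genes were. In culture libraries, taken as pairs by number, the replicate block gave 8 called and the replicate block with GC and length correction 14, against 0 without it. The replicate block gave 6 without pair 1, 12 without pair 2 and 10 without pair 3. Of the 8 genes, 2 lost their call without pair 1 and 2 without pair 3. With no block, leaving out single culture libraries moved Col3a1 between -0.36 and 1.31, Col6a1 between -0.15 and 0.75 and Col6a2 between -0.052 and 1.25, with the negative values without Omomyc library 3, and at 6 months alone Col4a1 was at -0.12 between the cell types. The cause of these changes was not tested. Of the single-gene results, 85 kept direction and side of the threshold with RLE scaling and 1 lost its call. These counts were 80 and 3 with DESeq2, 78 and 8 with no filter, and 79 and 7 with the GC correction and with the GC and length correction. They include the 8 culture genes called only with the block. For these genes, keeping the side of the threshold means staying uncalled. Outside culture the replicate numbers share no deviation (r between -0.175 and 0.176), and the replicate block there lost 12 calls of single genes. In microglia 9 of the 12 tested genes had SEs of 0.76 to 1.63, against 0.13 for Col27a1, and the 10 month astrocytes rest on 2 libraries.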
